A study of Ambystoma mexicanum with 12 samples.

Results

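Expression of 7 epithelial genes was examined in regenerating axolotl forelimbs: TP63, EHF, TGM1, AQP3, UPK3A, ST14 and JUP. They were found by symbol in the platform's probe annotation, which gave 11 probe sets of the 20035 tested, 3 for UPK3A, 2 each for TP63 and AQP3, and 1 for each of the other 4. Juvenile axolotls (Ambystoma mexicanum, about 8.8 cm long) lost a forelimb through the distal lower arm. From day 7 to day 14 they were kept in DMSO, the vehicle, in RA (retinoic acid, which activates its nuclear receptors naturally) or in LE135 (by general knowledge an antagonist of retinoic acid receptor beta). The blastema, the mound of cells that rebuilds the limb, was taken on day 14 with little stump, and each of the 4 samples of a treatment pooled 1 limb from each of 4 animals. No genotype, strain or dose is named in the sources used here. By the study's design text, limbs in DMSO regenerate, limbs in RA duplicate proximal to distal structures, and limbs in LE135 end truncated.

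The wound epidermis is the epithelium that closes over a limb stump, signals to the blastema beneath it and later rebuilds layered skin. In vertebrate skin a basal layer, maintained by the transcription factor TP63, divides and sends cells outward, where they differentiate, seal their junctions and cross-link their envelopes. Mucosal epithelia use, among others, factors of the ETS family such as EHF and make glycosylated surfaces, which in the mammalian urinary tract include plaques of uroplakins. No cell type was sorted here, so the samples mix wound epidermis with the tissue beneath it.

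The genes were chosen with these arrays' results in view. AQP3 and ST14 were chosen on RA against DMSO, and EHF, UPK3A, TGM1, TP63, JUP and ST14 on LE135 against DMSO. Their differences from DMSO are therefore given as a description, and an adjusted p for a contrast on which a gene was chosen is printed only where another setting or the omission of samples ended or gave the call. The words rose and fell mark probe sets with an adjusted p under 0.05 in limma, adjusted over all 20035 probe sets. Values are log2 levels on the array, each with its SD over n = 4 samples, and differences carry the standard error (SE) of the limma contrast.

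Epithelial markers were present in every treatment. The epithelial cadherin CDH1 stood at 12.28 in DMSO, 12.21 in RA and 12.24 in LE135, and the epithelial adhesion molecule EPCAM at 13.11, 12.93 and 12.96. Of 18 pan-epithelial markers other than the 7 genes, MAL2, a membrane protein of epithelial transport, fell under RA by 0.44 (SE 0.10), none rose, and 0 passed under LE135 in either direction. The medians were -0.11 and -0.12, with 14 of the 18 below 0 under each drug. Of all 8639 named genes, 132 rose and 105 fell under RA, and 75 rose and 136 fell under LE135. Below 0 lay 4791 of them under RA and 4259 under LE135. With DMSO 4 and LE135 4 left out, 1 rose (ELF3) and 2 fell (MAL2 and PKP3) under RA, and 1 rose (ELF3) and 2 fell (GRHL2 and DSP) under LE135. In that fit 333 of all 8639 named genes rose and 339 fell under RA, and 179 rose and 305 fell under LE135. The mean centred level of the 18 markers, each gene centred on its own average of the 12 samples, ran from -0.04 to 0.20 in DMSO, -0.06 to 0.00 in RA and -0.07 to 0.04 in LE135. The highest DMSO value was that of DMSO 4, and DMSO 1 to 3 read 0.05, -0.04 and 0.01. Where a marker is lower in pooled tissue, fewer epithelial cells and less RNA per epithelial cell cannot be told apart.

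DMSO 4 and LE135 4 correlated least with the other samples of their groups (mean correlation 0.978 and 0.986, against 0.989 to 0.996 for the rest), and calls that depend on them are given with and without both. Under LE135 and DMSO, samples with the same number deviated together, but so did samples 1 to 3 with different numbers. The number is therefore not shown to mark a pair. For the 11 probe sets and the epithelial and family lists, a call that changed in a fit blocked on that number (the blocked fit) is given with its value there. It is an alternative only. In that fit MAL2 no longer passed under RA (adjusted p = 0.0738). Skeletal muscle transcripts were the most uneven, with a mean centred level over 17 genes from -1.93 (DMSO 4) to 0.49 (DMSO 2) in DMSO, -1.13 (RA 3) to 1.30 (RA 2) in RA and -0.44 to 0.62 in LE135.

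Under RA 3 of the 11 probe sets passed, 1 higher and 2 lower, where 2.64% of all probe sets passed (1.62% higher, 1.01% lower). Under LE135 6 passed, 2 higher and 4 lower, where 2.09% of all did (0.893% higher, 1.19% lower). A moderated F test over the 3 treatments passed 6 of the 11 (2.68% of all). Samples of drug and DMSO did not overlap in 6 of the 11 under RA (11.3% of all probe sets) and in 8 under LE135 (7.53% of all). Because the genes were chosen on these contrasts, nothing is read from these counts. Without DMSO 4 and LE135 4, 6 passed under RA and 7 under LE135, in a fit where more of all probe sets passed too (counts in the last section).

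**Figure D1:**
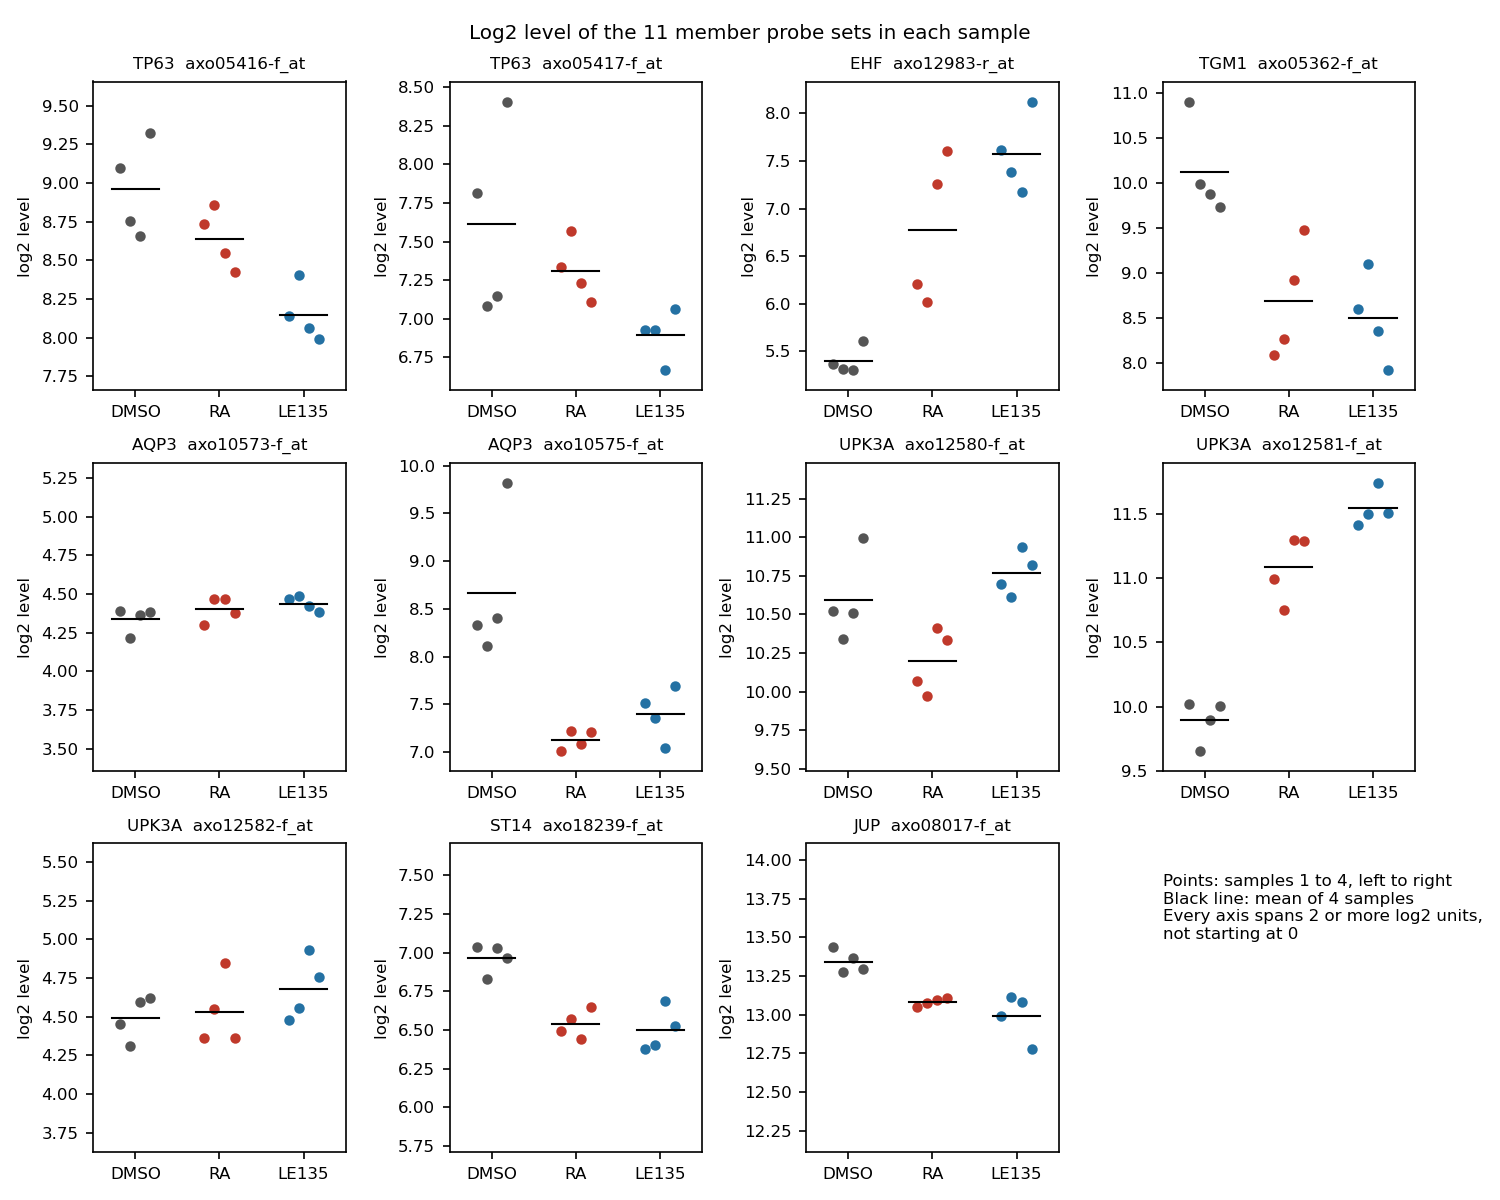
Log2 level (vertical axis, a separate range in each panel) of the 11 probe sets in the 4 samples of DMSO, RA and LE135; points are samples and black lines are means. EHF and the UPK3A probe set axo12581-f_at were higher in all drug samples than in any DMSO sample, while TGM1, ST14, JUP and the AQP3 probe set axo10575-f_at were lower in all of them, and TP63 was lowest in LE135.

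TP63 is the transcription factor that maintains basal epidermal cells. On probe set axo05416-f_at the DMSO samples 1 to 4 read 9.10, 8.75, 8.66 and 9.33, the RA samples 8.73, 8.86, 8.55 and 8.43, and the LE135 samples 8.14, 8.40, 8.06 and 7.99. All 4 LE135 samples lay below every sample of the other treatments, while RA and DMSO overlapped. TP63 fell under LE135 by 0.81 (SE 0.15), a 1.76-fold lower level, and stood 0.32 below DMSO under RA (log2 difference -0.32, SE 0.15, adjusted p = 0.365). The LE135 call ended in 4 of the 12 omissions of 1 sample (DMSO 1, LE135 1, 3 and 4, adjusted p up to 0.0684). It also ended in an unmoderated test (adjusted p = 0.0530) and in a limma fit of the 8 compared samples alone (adjusted p = 0.0815). With DMSO 4 and LE135 4 left out the differences were -0.20 under RA and -0.64 under LE135, of which the second passed.

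The second TP63 probe set, axo05417-f_at, had a wider spread in DMSO. Its means were 7.61 ± 0.63 (SD, n = 4) in DMSO, 7.31 ± 0.19 in RA and 6.90 ± 0.17 in LE135, and DMSO 4 was highest at 8.41. The differences from DMSO were -0.30 (SE 0.25, adjusted p = 0.659) under RA and -0.72 (SE 0.25, adjusted p = 0.207) under LE135, so neither passed, and with DMSO 4 and LE135 4 left out they were -0.04 and -0.51. LE135 again lay below every other sample.

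AQP3 encodes an aquaglyceroporin, a channel for water and glycerol, which in mammalian skin sits in the basal layers. Probe set axo10575-f_at read 8.33, 8.11, 8.40 and 9.82 in DMSO 1 to 4, 7.01, 7.22, 7.09 and 7.21 in RA, and 7.51, 7.36, 7.04 and 7.69 in LE135. DMSO 4 stood far above the other DMSO samples, and every drug sample lay below all of DMSO. AQP3 fell under RA by 1.53 (SE 0.31), a 2.90-fold lower level, and differed under LE135 by -1.26 (SE 0.31, adjusted p = 0.0620). Leaving out any 1 RA sample ended the RA call (adjusted p up to 0.0794). So did an unmoderated test (adjusted p = 0.0654) and a limma fit of the 8 compared samples alone (adjusted p = 0.0716). Without DMSO 4 and LE135 4 the differences were smaller, -1.15 under RA and -0.97 under LE135, and both passed, the latter with adjusted p = 0.00299. In the blocked fit the LE135 difference also passed (adjusted p = 0.0428). It passed in 4 of the 21 alternative settings (adjusted p up to 0.221). The other AQP3 probe set, axo10573-f_at, was dim in all samples, between 4.22 and 4.49, with a mean level above that of 21.4% of probe sets. It differed by 0.06 under RA and 0.10 under LE135 (adjusted p = 0.722 and 0.551).

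TGM1, the transglutaminase that cross-links the cornified envelope of outer epidermal cells, had the largest fall under LE135 among the 11. Its DMSO samples read 10.91, 9.99, 9.88 and 9.74, its RA samples 8.09, 8.26, 8.92 and 9.47, and its LE135 samples 8.60, 9.10, 8.36 and 7.92. No drug sample reached the lowest DMSO sample, and RA was spread over 1.39, with RA 1 and RA 2 low and RA 3 and RA 4 closer to DMSO. TGM1 fell under LE135 by 1.63 (SE 0.35), 3.10-fold, and differed under RA by -1.44 (SE 0.35, adjusted p = 0.0580). The LE135 call ended in 8 of the 12 omissions of 1 sample (adjusted p up to 0.103), DMSO 1, 2 and 3, RA 2 and 3, and LE135 1, 3 and 4, and in the blocked fit (adjusted p = 0.0847). It also ended in an unmoderated test (adjusted p = 0.0892) and in a limma fit of the 8 compared samples alone (adjusted p = 0.0743). With DMSO 4 and LE135 4 left out the differences were -1.57 under RA (adjusted p = 0.0283) and -1.57 under LE135. The RA difference passed in 4 of the 21 alternative settings (adjusted p up to 0.172).

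ST14 encodes matriptase, a membrane-anchored serine protease of epithelial surfaces. It read 7.04, 6.83, 7.03 and 6.97 in DMSO, 6.49, 6.57, 6.44 and 6.65 in RA, and 6.37, 6.40, 6.69 and 6.53 in LE135. The groups were tight, with SDs from 0.09 to 0.14, and neither drug overlapped DMSO. ST14 fell by 0.43 under RA and by 0.47 under LE135 (SE 0.08 each), or 1.35-fold and 1.38-fold. Leaving out RA 1, 2 or 3 or DMSO 1 or 3 ended the RA call, and leaving out DMSO 1 or LE135 1 ended the LE135 call (adjusted p up to 0.0709 and 0.0515). A limma fit of the 8 compared samples alone also ended the LE135 call (adjusted p = 0.0725).

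JUP encodes plakoglobin, which links cadherins to the cytoskeleton in desmosomes and adherens junctions. It read 13.44, 13.28, 13.36 and 13.29 in DMSO, 13.05, 13.08, 13.10 and 13.11 in RA, and 12.99, 13.11, 13.08 and 12.78 in LE135. Both drugs lay wholly below DMSO, and the RA samples fell within 0.06 of each other. JUP fell under LE135 by 0.35 (SE 0.07) and differed under RA by -0.26 (SE 0.07, adjusted p = 0.106). The LE135 call was lost in 9 of the 12 omissions of 1 sample (all but DMSO 4, LE135 2 and LE135 4, adjusted p up to 0.107), when each array was centred on its median (adjusted p = 0.0859) and in the blocked fit (adjusted p = 0.0569). It was also lost in a limma fit of the 8 compared samples alone (adjusted p = 0.163). With both DMSO 4 and LE135 4 left out the difference was -0.28 under RA (adjusted p = 0.0167) and -0.30 under LE135. The RA difference passed in 3 of the 21 alternative settings (adjusted p up to 0.240).

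EHF, an ETS transcription factor of epithelia, had the largest rise. Its DMSO samples read 5.37, 5.32, 5.30 and 5.60, its RA samples 6.20, 6.02, 7.26 and 7.60, and its LE135 samples 7.61, 7.38, 7.17 and 8.12. DMSO was uniform and lay below every drug sample. EHF rose under LE135 by 2.18 (SE 0.33), 4.52-fold, and in all 12 omissions of 1 sample. Under RA it stood 1.37 higher (SE 0.33, 2.59-fold, adjusted p = 0.0507), just short of the threshold, and without DMSO 4 and LE135 4 the difference was 1.44 (adjusted p = 0.0316). The RA difference passed in 7 of the 21 alternative settings (adjusted p up to 0.134). The RA samples formed a low pair, RA 1 and RA 2, and a high pair, RA 3 and RA 4, with an SD of 0.78 against 0.14 in DMSO. The same RA 1 and RA 2 had the higher levels of fibroblast genes (mean centred level 0.40 and 0.38, against 0.02 and 0.15 in RA 3 and RA 4) and of muscle genes (1.04 and 1.30, against -1.13 and -0.19), whose part in the EHF values was not tested.

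UPK3A, a uroplakin known from the plaques of the mammalian urinary tract, rose on 1 of its 3 probe sets. Probe set axo12581-f_at read 10.019, 9.651, 9.898 and 10.002 in DMSO, 10.996, 10.757, 11.302 and 11.294 in RA, and 11.416, 11.504, 11.747 and 11.513 in LE135. The 3 treatments did not overlap, in the order DMSO, RA, LE135. It rose by 1.19 under RA (SE 0.13, 2.29-fold) and by 1.65 under LE135 (SE 0.13, 3.14-fold), and both calls stood in all 21 alternative settings.

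The other UPK3A probe sets did not rise. Probe set axo12580-f_at read 10.52, 10.34, 10.51 and 10.99 in DMSO, 10.07, 9.97, 10.41 and 10.33 in RA, and 10.70, 10.61, 10.94 and 10.82 in LE135. It differed by -0.39 under RA (SE 0.14, adjusted p = 0.207) and by 0.18 under LE135 (SE 0.14, adjusted p = 0.689), and both groups overlapped DMSO. The difference between the 2 bright probe sets within an array went from -0.70 ± 0.21 (SD, n = 4) in DMSO to 0.89 ± 0.08 in RA and 0.78 ± 0.09 in LE135, so their log2 changes differed by 1.59 under RA and 1.48 under LE135. On both probe sets DMSO 2 was lowest of DMSO, RA 2 lowest and RA 3 highest of RA, and LE135 3 highest of LE135, while the highest DMSO sample and the lowest LE135 sample differed between them. Probe set axo12582-f_at was dim, above 24.9% of probe sets by mean level, with means of 4.49, 4.53 and 4.68 in DMSO, RA and LE135 and differences of 0.04 and 0.19 (adjusted p = 0.944 and 0.615). The sources used here do not say which transcripts or gene copies each probe set measures, so the rise belongs to axo12581-f_at and not to UPK3A as a whole.

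**Figure D2:**
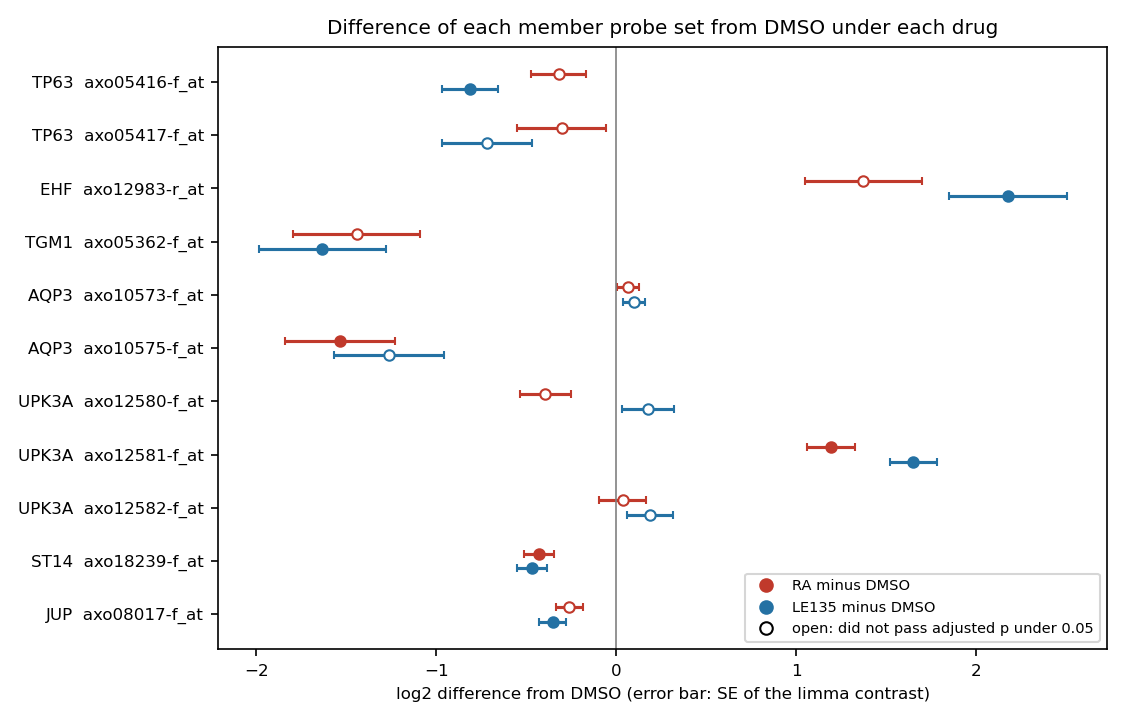
Log2 difference of each of the 11 probe sets from DMSO (horizontal axis) under RA and LE135, with error bars of 1 SE and open points where adjusted p was not under 0.05. EHF and UPK3A axo12581-f_at lay right of 0 at 1.19 to 2.18, TGM1 and AQP3 axo10575-f_at lay left at -1.26 to -1.63, and ST14, JUP and TP63 lay left at -0.26 to -0.81, while UPK3A axo12580-f_at lay on either side.

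Set by role, the basal regulator TP63, the basal channel AQP3 (axo10575-f_at), the junction protein JUP, the surface protease ST14 and the differentiation enzyme TGM1 all stood lower than DMSO in LE135. The genes that stood higher were EHF and UPK3A (axo12581-f_at), which were placed on the mucosal list here. The genes below DMSO included both basal and differentiated ones. The choice of the genes on these contrasts fixed those directions, so nothing is read from their median, given for completeness. The median log2 difference of the 11 probe sets was -0.30 under RA and -0.35 under LE135, against -0.01 and 0.01 over all probe sets.

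RA against LE135 was not a contrast on which the genes were chosen, although it uses the same samples. The RA or LE135 arrays on which each of the 7 genes was chosen enter it, so its counts and directions are touched by that choice and are a description. No probe set of the 11 passed (limma, 0.02% of all passed), and 4 had an unadjusted p under 0.05, which 7.67% of all did. The 4 RA and 4 LE135 samples did not overlap in 4 of the 11 (6.93% of all probe sets), namely both of TP63, higher in RA, and UPK3A axo12580-f_at and axo12581-f_at, lower in RA. TP63 axo05416-f_at was 0.49 higher in RA (SE 0.15, 95% interval 0.16 to 0.83, adjusted p = 0.418) and axo05417-f_at 0.41 higher (95% interval -0.13 to 0.96, adjusted p = 0.785). UPK3A was lower in RA by a difference of -0.46 on axo12581-f_at (95% interval -0.75 to -0.17, adjusted p = 0.364) and -0.57 on axo12580-f_at (95% interval -0.88 to -0.25, adjusted p = 0.295). EHF differed by -0.80 (95% interval -1.52 to -0.09, adjusted p = 0.599), with overlap of RA 3 and RA 4 and the LE135 samples. For TGM1, AQP3 axo10575-f_at, ST14 and JUP the differences were 0.19, -0.27, 0.04 and 0.09. The 95% intervals of these 4 held 0 and ran from -0.58 to 0.97 for TGM1, -0.94 to 0.40 for AQP3, -0.14 to 0.22 for ST14 and -0.07 to 0.26 for JUP. Differences between the drugs within those ranges thus remained compatible with the 4 samples each.

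The relatives and partners of the 7 genes were counted from lists written from general knowledge, with 1 probe set per gene. Among all 8639 named genes 132 rose and 105 fell under RA (2.74% passed, 1.53% higher and 1.22% lower), and 75 rose and 136 fell under LE135 (2.44% passed, 0.868% higher and 1.57% lower), with medians of -0.02 and 0.00.

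Of the 4 other uroplakins measured, none passed under either drug (limma, all adjusted). UPK1B, a tetraspanin that pairs with UPK3A in mammals, stood at 12.68 ± 0.11 (SD, n = 4) in DMSO, 12.17 ± 0.31 in RA and 12.56 ± 0.19 in LE135, with differences of -0.51 (SE 0.14, adjusted p = 0.0978) and -0.12 (adjusted p = 0.804). Every RA sample of UPK1B lay below every DMSO sample, and in the blocked fit its lower level under RA passed (adjusted p = 0.0300). UPK1A differed by -0.19 and 0.19 (adjusted p = 0.628 and 0.675), UPK2 by 0.46 and 0.40 (adjusted p = 0.780 and 0.832) and UPK3B by -0.31 and 0.09 (adjusted p = 0.203 and 0.813). In RA, samples 3 and 4 were higher than samples 1 and 2 in UPK1A, UPK1B, UPK2 and both bright probe sets of UPK3A.

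Of 14 other ETS factors 0 rose and 0 fell under RA, and under LE135 0 rose and SPI1, a factor of myeloid cells, fell by 0.60 (SE 0.14). The median was -0.01 under RA and 0.01 under LE135. ELF3, an epithelial relative of EHF, read 5.34, 5.50, 5.39 and 6.18 in DMSO, 6.37, 6.20, 6.55 and 6.59 in RA, and 6.36, 6.33, 6.33 and 7.79 in LE135. No drug sample of ELF3 overlapped DMSO, and the highest DMSO and LE135 samples were DMSO 4 and LE135 4. Its differences of 0.82 (SE 0.31, adjusted p = 0.221) and 1.10 (SE 0.31, adjusted p = 0.111) did not pass with all samples, and passed without those 2 (adjusted p = 4.39e-04 and 0.00120). In the blocked fit ELF3 also passed under LE135 (adjusted p = 0.0292) and ETV3 under RA (adjusted p = 0.0478). A second, dimmer ELF3 probe set, axo05398-f_at, did not pass with all samples (limma, differences 0.40 under RA and 0.62 under LE135, adjusted p = 0.385 and 0.161). Without DMSO 4 and LE135 4, 3 of the 14 rose under RA, ELF3, ETS2 and ETV3, and under LE135 the same 3 rose and 2 fell, ELF1 and SPI1.

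Among 17 partners, relatives or targets of TP63, 2 fell under RA, the homeobox gene DLX6 by 1.38 (SE 0.16) and the growth factor BMP7 by 0.47 (SE 0.11), and none rose. Under LE135 DLX6 fell by 1.26 (SE 0.16) and none rose. Both are also limb patterning genes, so this list does not report on the epidermis alone. The medians were -0.14 and -0.18. Of the 17, 13 lay below 0 under RA and 16 under LE135, against 4791 and 4259 of all 8639 named genes. With DMSO 4 and LE135 4 left out, 4 fell under RA (DLX6, BMP7, TRIM29 and ZNF750). In that fit 5 fell under LE135 (DLX6, TRIM29, GRHL2, ZNF750 and HELLS).

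No transglutaminase or cornified envelope gene passed among the 5 measured besides TGM1. TGM2, a widely expressed transglutaminase, differed by 0.37 under RA and 0.31 under LE135 (adjusted p = 0.0896 and 0.171), and the envelope scaffold EVPL by -0.24 and -0.28 (adjusted p = 0.447 and 0.399). Of 11 genes of differentiated or cornified epidermis other than TGM1, none passed under RA. Under LE135 the epithelial repressor OVOL2 fell by 0.61 (SE 0.14) and PRDM1, a factor of terminal differentiation, rose by 0.39 (SE 0.09), and neither passed without DMSO 4 and LE135 4 (adjusted p = 0.0947 and 0.0761) or in the blocked fit (adjusted p = 0.0734 and 0.0699). A second, dimmer PRDM1 probe set did not pass under LE135 (difference 0.28, adjusted p = 0.533). ZNF750, a factor of epidermal differentiation that is also on the basal and TP63 lists, differed under LE135 by -0.51 and passed in the blocked fit (adjusted p = 0.163, or 0.0276 blocked). That list's medians were -0.24 and -0.31, or -0.10 and -0.29 without the 2 samples. Without them 1 gene fell under RA and 2 under LE135, with none rising.

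Of 14 genes of basal epidermis and its attachment to the basement membrane other than TP63, none rose or fell under either drug, with medians of 0.00 under RA and -0.10 under LE135. Once DMSO 4 and LE135 4 were left out, 3 fell under each drug. Their mean centred level was -0.26 in DMSO 4 and -0.41 in LE135 4, against 0.15 to 0.19 in the other DMSO and -0.10 to 0.07 in the other LE135 samples. On axo05416-f_at TP63 itself was highest of DMSO in DMSO 4 and lowest of LE135 in LE135 4. On axo05417-f_at DMSO 4 was again highest of DMSO, but LE135 4 was highest of LE135, at 7.07.

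Water and salt transport was covered by 18 genes besides AQP3. RHBG, an ammonium transporter, rose by 1.73 (SE 0.22) under RA and by 1.32 (SE 0.22) under LE135. SLC4A4, a sodium bicarbonate cotransporter, rose by 1.09 (SE 0.23) under LE135 and stood 0.95 higher under RA (adjusted p = 0.0559, or 0.0499 in the blocked fit). Its other probe sets, axo06020-f_at and axo09473-r_at, differed by 0.32 and 0.02 under LE135 and did not pass. RHCG did not pass on its brightest probe set, axo15715-r_at, which stands for the gene in the list (differences -0.16 under RA and 0.33 under LE135). Its dimmer probe set axo15713-f_at rose by 2.04 under RA and by 1.39 under LE135 (adjusted p = 0.00290 and 0.0224), and axo15716-f_at did not pass. With 1 probe set per gene none fell, and the medians were -0.06 and 0.00. AQP1, the other aquaporin with a named probe set here, read 7.01, 7.99, 7.99 and 8.89 in DMSO and 6.86, 6.72, 6.16 and 6.67 in RA, a difference of -1.37 (SE 0.40, adjusted p = 0.113), and with DMSO 4 and LE135 4 left out it passed (adjusted p = 0.0366). Its LE135 difference was -0.54 (adjusted p = 0.644). Without those samples 3 of the 18 rose and 2 fell under RA, and 2 rose and 2 fell under LE135.

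Of 12 other membrane serine proteases, inhibitors and their targets, none passed under either drug, with or without DMSO 4 and LE135 4, and the medians were -0.04 and 0.00. SPINT1, the main inhibitor of matriptase, differed by -0.20 under RA and -0.05 under LE135 (adjusted p = 0.578 and 0.930), and its relative SPINT2 by -0.07 and -0.02 (adjusted p = 0.740 and 0.959).

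Among 20 other desmosome and adherens junction genes none passed under RA, and DSC2, a desmosomal cadherin, fell under LE135 by 0.81 (SE 0.18). The medians were -0.10 and -0.20, with 15 of the 20 below 0 under RA and all 20 under LE135. Of all 8639 named genes 4791 and 4259 were below 0. The mean centred level of the 20 ran from 0.04 to 0.19 in DMSO, -0.04 to -0.0004 in RA and -0.34 to 0.001 in LE135. DSC2 stood at 12.77 ± 0.18 (SD, n = 4) in DMSO, 12.19 ± 0.05 in RA and 11.96 ± 0.46 in LE135, and differed under RA by -0.58 (SE 0.18, adjusted p = 0.144). Every RA sample of DSC2 lay below every DMSO sample. Without DMSO 4 and LE135 4 it passed under both drugs (limma, adjusted p = 8.03e-04 under RA and 0.00154 under LE135). CTNNB1 (beta-catenin), the close relative of plakoglobin, differed by 0.03 and -0.01 (adjusted p = 0.880 and 0.977), and the desmosomal linker DSP, on its brightest probe set, by -0.13 and -0.40 (adjusted p = 0.802 and 0.310). Leaving out DMSO 4 and LE135 4, 3 fell under RA and 4 under LE135.

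Of 20 mucosal or secretory genes other than EHF and UPK3A, the glycosyltransferase B3GNT5 rose under RA by 1.53 (SE 0.22) and under LE135 by 1.19 (SE 0.22), and none fell. The medians were -0.05 and -0.02. The simple epithelial keratin KRT8 had 4 probe sets that disagreed. The brightest, axo21370-f_s_at, which stands for the gene in the list, differed by -0.03 under RA and by -0.19 under LE135 (adjusted p = 0.915 and 0.350). Probe set axo08049-f_at rose by 0.93 under RA and by 0.81 under LE135 (adjusted p = 0.00347 and 0.00758), and the remaining KRT8 probe sets did not pass. Without DMSO 4 and LE135 4, 3 rose and 1 fell under RA, and 2 rose and 1 fell under LE135. PRSS8, ELF5 and KRT5 had no probe set under those symbols and were not analysed here.

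**Figure D3:**
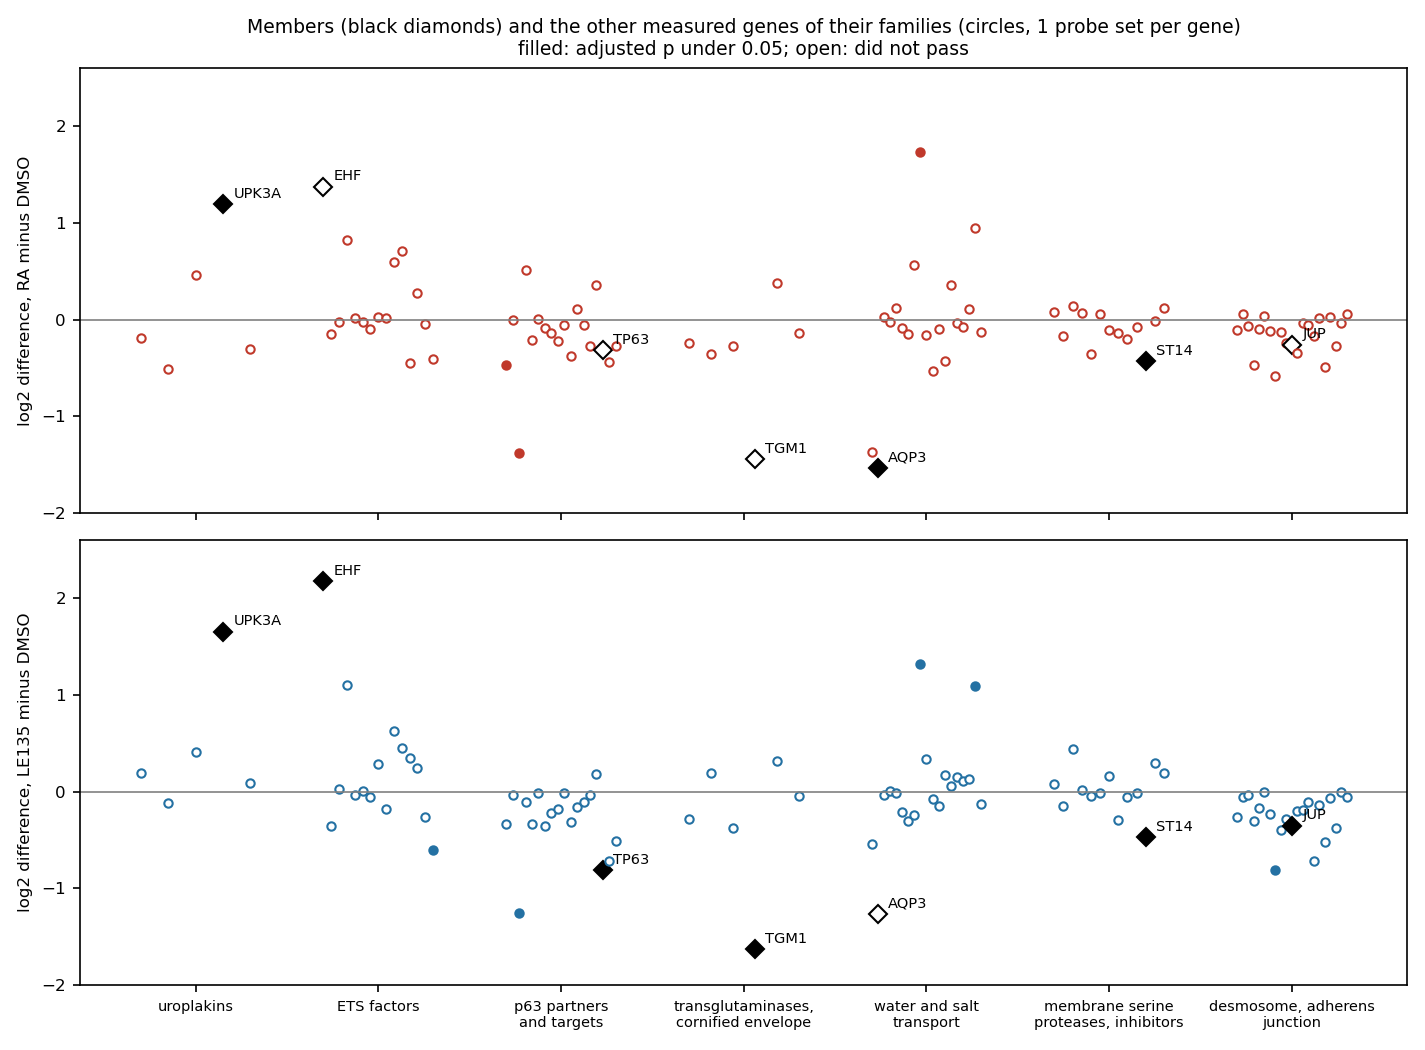
Log2 difference from DMSO (vertical axis, RA above and LE135 below) of the 7 genes (black diamonds) and of the other measured genes of their families (circles), filled where adjusted p was under 0.05. EHF, UPK3A (axo12581-f_at), TGM1 and AQP3 (axo10575-f_at) lay beyond the uroplakins, ETS factors, transglutaminases or aquaporin in their family lists. The genes were chosen for their differences from DMSO, so nothing is read from that. UPK3A axo12580-f_at, not drawn, differed by -0.39 under RA and 0.18 under LE135. No uroplakin or transglutaminase other than UPK3A and TGM1 was filled, and TGM1 was filled only under LE135.

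Other cell types were followed with marker lists. The fibroblast list had its lowest sample in DMSO (mean centred level from -0.50 to 0.07 over 26 genes, 0.02 to 0.40 in RA and -0.23 to 0.12 in LE135). Its median difference was 0.46 under RA, with 4 of 26 genes below 0, and 0.15 under LE135, with 1 below 0. With all samples the dimmer COL1A1 probe set, axo20348-f_s_at, rose under RA by 0.69 (adjusted p = 0.0176), while the brighter one did not pass (difference 0.44, adjusted p = 0.181). On the probe sets that stand for their genes, DCN and FAP rose under RA (DCN not in the blocked fit, adjusted p = 0.0823) and FAP under LE135. With DMSO 4 and LE135 4 left out the medians were 0.31 and 0.05, and COL6A1 and OGN rose under RA as well. With all samples the RA median of the fibroblast list was larger in size than the RA differences of TP63, ST14 and JUP. Without those 2 samples it was larger in size than that of TP63 axo05416-f_at (-0.20) and JUP (-0.28) and smaller than that of ST14 (-0.43). Under LE135 the fibroblast median (0.15) was smaller in size than the differences of TP63 axo05416-f_at (-0.81), ST14 (-0.47) and JUP (-0.35). It was also smaller without those 2 samples (0.05, against -0.64, -0.48 and -0.30). The 17 muscle genes had medians of 0.72 under RA and 0.55 under LE135, or 0.03 and 0.04 without those 2 samples, and DES rose under RA in both fits, on 1 of its 3 probe sets with all samples. Macrophage and neutrophil genes gave 2 higher, MMP9 and CYBA, and 1 lower, SPI1, of 13 under LE135 and none under RA, with or without the 2 samples. No gene passed with all samples among 12 endothelial, 9 Schwann cell and nerve, 6 erythrocyte or 5 pigment cell genes. Without the 2 samples GAP43 rose under both drugs and PMP22 and TUBB3 fell under RA among the nerve genes, EGFL7 fell under LE135 among the endothelial genes, and RHAG rose under RA and fell under LE135 among the erythrocyte genes. What part these cells have in the values of the 7 genes was not tested.

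**Figure D4:**
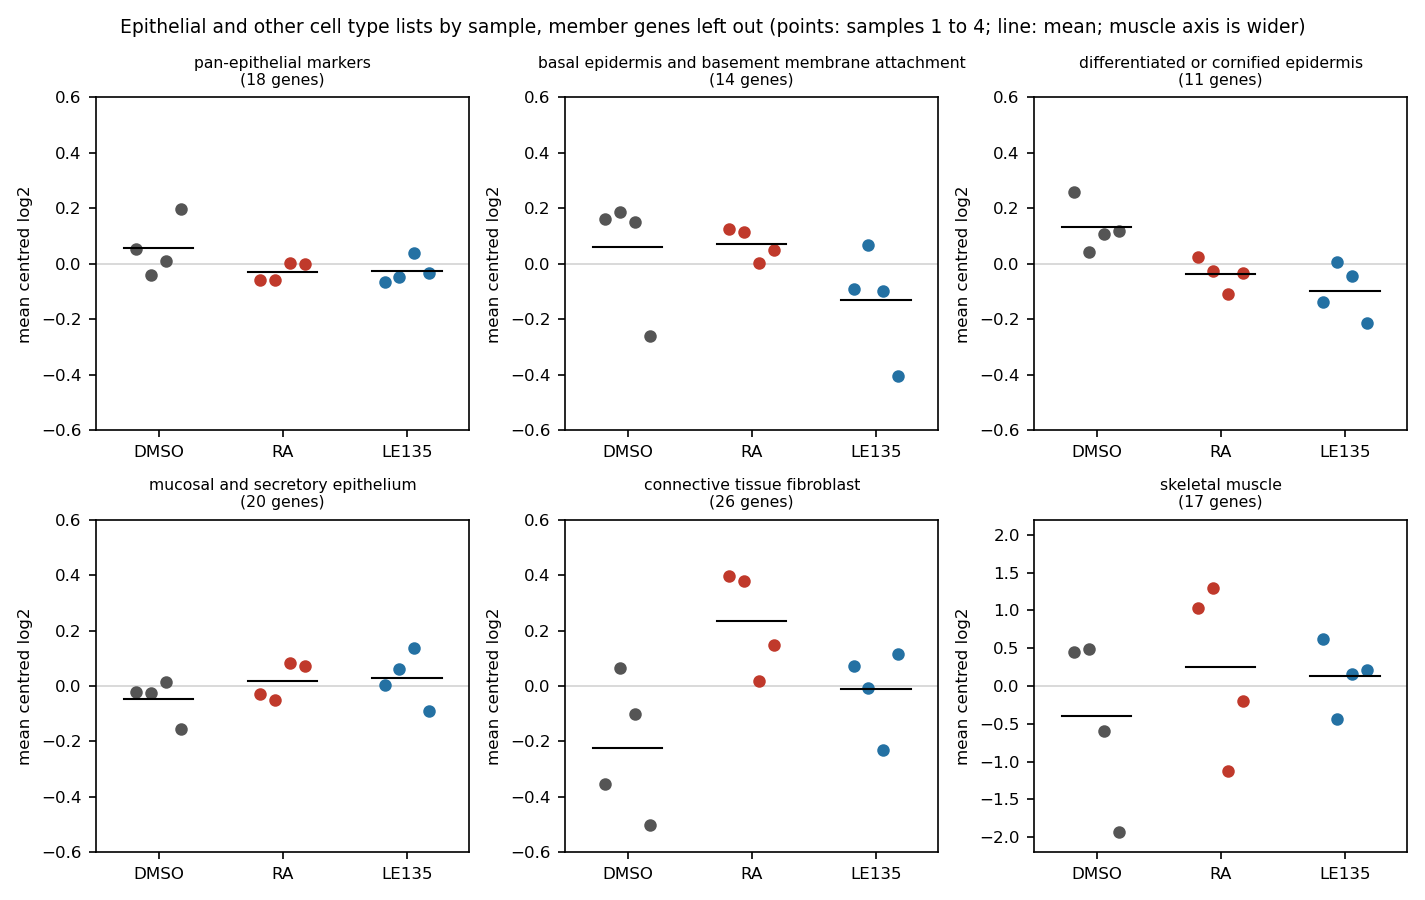
Mean centred log2 level of each list (vertical axis), by sample and treatment, with the 7 genes left out and the muscle axis wider. Pan-epithelial markers stayed between -0.07 and 0.20, while muscle genes ran from -1.93 to 1.30 and fibroblast genes from -0.50 to 0.40.

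The genes most like each of the 7 were the 3 named genes with the highest Pearson correlation over the 12 samples, out of 8638. For EHF these were B4GALT3, C1GALT1 and SMPDL3B (r = 0.97, 0.96 and 0.95), and for UPK3A axo12581-f_at SMPDL3B, DUSP10 and C1GALT1 (r = 0.97, 0.96 and 0.95). B4GALT3 and C1GALT1 are glycosyltransferases, SMPDL3B is a membrane-bound phosphodiesterase and DUSP10 is a phosphatase of stress kinases. B4GALT3 rose by 0.68 under RA and 1.24 under LE135, C1GALT1 by 1.23 and 1.68, SMPDL3B by 0.84 and 1.23, and DUSP10 by 0.39 and 0.65. EHF and UPK3A shared C1GALT1 and SMPDL3B among their 3 nearest.

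For JUP the nearest were DSC2, PDLIM5 and UAP1 (r = 0.98, 0.97 and 0.97), and for TGM1 KCTD6, UAP1 and HMMR (r = 0.94, 0.94 and 0.93). UAP1, an enzyme of amino sugar synthesis, fell by 0.97 under RA and by 1.04 under LE135, and HMMR by 0.48 and 0.64. DSC2 and PDLIM5 fell under LE135 by 0.81 and 0.37. TP63 was nearest to RPS6KA1, a kinase of the ERK pathway, UGCG, which makes glucosylceramide, and the mitotic kinase PLK1 (r = 0.94, 0.93 and 0.92), of which UGCG fell by 0.75 and RPS6KA1 by 0.46 under LE135. AQP3 axo10575-f_at was nearest to the receptor P2RY4 and the cell cycle genes PRIM2 and ZWINT (r = 0.95 each), and ST14 to the glucose transporter SLC2A12, the DNA repair gene RAD50 and LYPD6 (r = 0.94, 0.92 and 0.92). These correlations share the same 12 arrays and include the difference between treatments.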

How the data were processed

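RNA of 12 blastema pools was hybridised to Affymetrix arrays, 1 array per pool. The deposited log2 values of 20080 probe sets were made with RMA (background correction, quantile normalization, summary per probe set), per the submitters' processing notes, with no version given. Dropping 45 control probe sets gave 20035 for testing. No detection filter was applied, so dim probe sets stayed in. Gene names came from the platform annotation (10951 probe sets with 1 symbol, 9084 with none), and no genome coordinates or sequences were used. A gene with several probe sets was represented in lists by the one with the highest mean.

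All 12 samples entered a linear model per probe set in limma 3.58.1, run in R 4.3.3, with group means, moderated contrasts and Benjamini-Hochberg adjustment over all probe sets at 0.05. The step was tested on simulated data. Intervals at 95% use the moderated spread. For arrays, the 4 samples per group limit the precision.

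The genes, lists and tests were chosen with earlier results of these data known. Genes named from lists were those past the threshold (up to 6 per list and comparison, smallest p first) and 10 partners fixed by name, of which 5 were measured. UPK1A, UPK1B, UPK2, UPK3B, ETS2, ETV3, ELF1, ZNF750, TRIM29, HELLS, SPINT2, TGM2, EVPL, AQP1, RHCG, KRT8, EPCAM, PKP3, GRHL2, COL1A1, COL6A1, OGN, GAP43, PMP22, TUBB3, EGFL7 and RHAG were named after their values were seen. The treatments share sample numbers 1 to 4. Deviations from the group means correlated over 0.1 in all 4 same-number pairs of DMSO and LE135 (0.13 to 0.61), but not in every pair of DMSO and RA or of RA and LE135 (7 of the 12 pairs in all). Among samples 1 to 3, however, DMSO and LE135 samples with different numbers correlated by 0.12 to 0.39. The highest same-number value, 0.61, was that of DMSO 4 and LE135 4. These correlations therefore do not show that the number marks a pair. The blocked fit is an alternative, and for LE135 against DMSO the calls that it changed are given beside the result.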

Additional observations from a re-analysis of the deposited data

Results flagged for a closer look

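Among 33 groups of 4 samples (11 probe sets in 3 treatments), 1 held a sample far from the others by Dixon's test, where chance gives about 1 in 20. It was the low AQP3 probe set axo10573-f_at, on which DMSO 2 read 4.22 and the nearest DMSO sample 4.36. On the brighter AQP3 probe set axo10575-f_at, DMSO 4 (9.82, nearest DMSO sample 8.40) fell just short of the cut-off.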

How the results depend on the processing

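Depending on the sample left out, 1 to 6 of the 11 probe sets passed under RA, 2 to 7 under LE135, 0 to 0 between the drugs and 2 to 7 among the 3 treatments (main counts 3, 6, 0 and 6). Over all probe sets the counts ran from 231 to 671 under RA, 220 to 742 under LE135 and 1 to 13 between the drugs (main counts 528, 418 and 4). With array weights 6 of the 11 passed under RA, and 1362, 1265 and 186 of all probe sets passed under RA, under LE135 and between the drugs. Without DMSO 4 and LE135 4, 6 of the 11 passed under RA, and 1530, 1027 and 43 of all. In fits of the 8 compared samples alone 2 of the 11 passed under LE135, and 340, 111 and 10 of all. An unmoderated test gave 3 of the 11 among the treatments, and 343 of all under RA and 2 between the drugs. With the sample number as a replicate block, 11 of all probe sets passed between the drugs, EHF passed under RA and AQP3 axo10575-f_at under LE135 (adjusted p = 0.0294 and 0.0428), and TGM1 and JUP no longer passed under LE135 (adjusted p = 0.0847 and 0.0569). It changed no other call among the 11 probe sets. Of the single probe-set values under the alternatives, 626 kept their side of the threshold, 43 lost it and 18 gained it, and no called value changed sign. The causes were not tested.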
